A study of Mus musculus with 6 samples.

Results

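The fibulins described here are Fbln1, Fbln2, Fbln5, Efemp1 and Efemp2, a family of 5 secreted matrix glycoproteins, measured in leukemia cells of mice. RNA from 6 samples was hybridised to Illumina bead arrays, 1 array per sample. The members were looked up by symbol in the annotation of the platform, which gave a probe for 4 of the 5 genes, among 19057 genes in all. Of 45281 probes 10 belonged to the family, with 5 for Fbln1, 3 for Fbln2 and 1 each for Fbln5 and Efemp1. No probe carried the symbol or gene ID of Efemp2, which was not analysed here. The groups were 3 arrays of Klf4-deficient cells and 3 arrays of control cells, which the sample labels call wild type. In both groups T cell acute lymphoblastic leukemia (T-ALL) had been driven by NOTCH1, bone marrow was taken 4 weeks after transplantation, the labels give the sex as male, and cells positive for GFP, CD4 and CD8 were sorted. The sources used here do not give the mouse strain, the Klf4 allele, the recombinase, the NOTCH1 construct or the animals' age. Nothing in the labels says that the 3 samples of a group came from separate animals, so the errors may be technical.

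Fibulins are built from calcium-binding EGF repeats followed by a shared module at the carboxyl end. They are deposited between cells, where they bind to elastic fibres and basement membranes. Fibulin-1 and fibulin-2, the products of Fbln1 and Fbln2, bind fibronectin, laminins, nidogen and proteoglycans. Fibulin-5 and fibulin-4, the products of Fbln5 and Efemp2, are needed for the assembly of elastic fibres, and Efemp1 encodes fibulin-3. Fibroblasts, smooth muscle cells and endothelial cells are well-known sources of these proteins.

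The family was chosen by the measured signals of Fbln2, whose difference between these groups was already known. Its difference and those of its relatives are therefore given as a description, with no test. Signals are the deposited probe intensities on a linear scale. To count as above background, a signal had to exceed a limit set for each array at 3 SDs of its background, which fell between 21.8 and 23.7. Each difference is Klf4-deficient minus control in normalized log2 units, with its standard error (SE) from limma fitted over all probes. With 3 arrays a group the precision is low, and levels of different probes are not set against each other.

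On the 6 arrays the mean probe signal ran from 359 to 445, and between 17152 and 17446 probes were above background. In a principal component analysis the leading component, with 35.8% of the variance, set Klf4-deficient array 3 apart. Klf4, the targeted gene, gave 80.6, 46 and 85.4 in the arrays labelled Klf4-deficient and 44, 18.4 and 24.6 in the control arrays with 1 probe, while its other 2 probes were under the limit on every array. This goes against the label, but the position of the probe relative to the deleted part is unknown, so it may check nothing about the deletion. Of the sorted cells' own markers, Cd4 gave 1051.7 to 1414.5 in the arrays labelled Klf4-deficient and 1044 to 1477.3 in the controls, and Rag1 gave 2368.9 to 2856.6 in the Klf4-deficient arrays and 2784.2 to 3744.6 in the controls. The Cd8a probe lay near the limit, above it on 1 of 3 Klf4-deficient and 3 of 3 control arrays, whereas Cd8b1 gave 25891.8 to 26626.6 in the Klf4-deficient arrays and 28518.1 to 29424.4 in the controls.

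Fbln2 was lower in the arrays labelled Klf4-deficient, with 2 of its 3 probes. Probe ILMN_1245307 gave 191.8, 321.2 and 294.1 in Klf4-deficient arrays 1, 2 and 3, and 1350.2, 751.8 and 736 in control arrays 1, 2 and 3. Every Klf4-deficient array lay below every control array, with a gap between 321.2 and 736. The means were 269 ± 68.2 in the Klf4-deficient arrays and 946 ± 350 in the controls (SD, n = 3 each). On the normalized log2 scale the difference was -1.62 ± 0.33 (SE), which is 3.07-fold lower. Control array 1 held the highest signal and Klf4-deficient array 1 the lowest. Without control array 1 the difference was -1.36, and without Klf4-deficient array 1 it was -1.38.

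**Figure D1:**
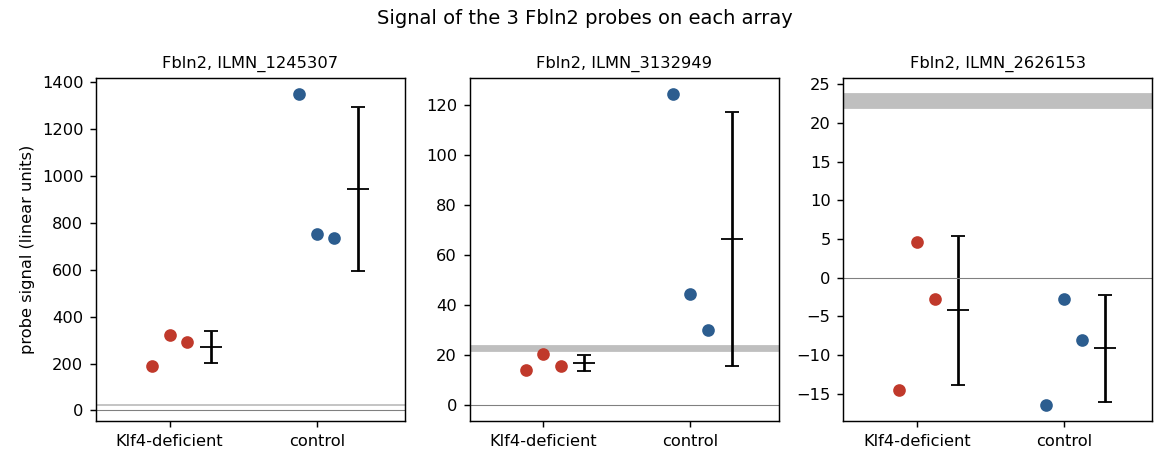
Signal of the 3 Fbln2 probes, in linear units on a separate vertical axis for each probe, for the 3 Klf4-deficient arrays (left, red) and the 3 control arrays (right, blue); the black marks give the mean and SD, and the grey band the range of the background limit over the arrays. The first and second probes are lower on every Klf4-deficient array than on any control array, and the third stays under the band on all 6.

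A second Fbln2 probe ran the same way near the background. Probe ILMN_3132949 gave 14.2, 20.6 and 15.8 in Klf4-deficient arrays 1, 2 and 3, and 124.3, 44.5 and 30.1 in control arrays 1, 2 and 3. It was above background on 0 of 3 Klf4-deficient arrays and on 3 of 3 control arrays, and the groups did not overlap. If each Klf4-deficient array is set to the lowest measurable signal, it was at least 1.82-fold lower in them, or at least 1.34-fold lower without control array 1. Its measured log2 difference was -1.10 ± 0.44 (SE), and -0.64 without control array 1. Probe ILMN_2626153, annotated to a different RefSeq transcript record of Fbln2 than the other 2 probes, was under the limit on every array, from -14.5 to 4.6 in the Klf4-deficient arrays and from -16.5 to -2.8 in the controls. Where these probes lie on the transcript is not given in the sources used here.

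Among the 8361 genes above background on all 6 arrays, Fbln2 had the most negative difference. This is the value for which it was taken up, and nothing is read from it. The next, Camk1g, a calmodulin-dependent kinase gene, was at -1.00, and the median of the 8361 genes was -0.01. Of these genes 12.7% had every Klf4-deficient signal below every control signal. Over all 45281 probes the share was 7.57%, against 2 of the 10 fibulin probes. In limma over all 19057 genes 0 genes were lower at an adjusted p under 0.05 (0% of those tested), and 780 (4.09%) were so at p under 0.05 before adjustment.

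**Figure D2:**
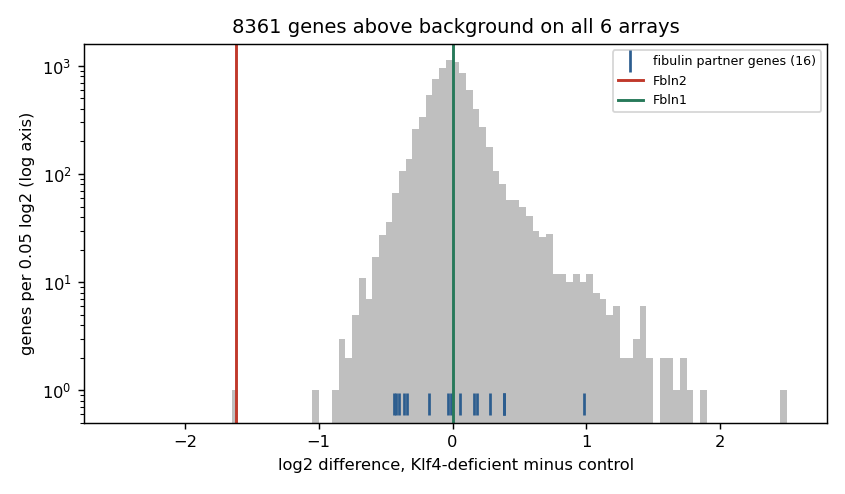
Distribution of the log2 difference, Klf4-deficient minus control, over the 8361 genes above background on all 6 arrays, with the number of genes per bin on a log axis. The red line marks Fbln2 at -1.62, the green line Fbln1 at 0.00, and the blue ticks 16 genes of the matrix, receptor and protease lists.

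Fbln1 signals overlapped between the groups. Probe ILMN_2870672 gave 107.7, 57 and 70.1 in Klf4-deficient arrays 1, 2 and 3, and 161, 37.3 and 80.3 in control arrays 1, 2 and 3. The highest signal was in a control array and so was the lowest, with all Klf4-deficient arrays between them. The means were 78.3 ± 26.3 in the Klf4-deficient arrays and 92.9 ± 62.8 in the controls (SD, n = 3 each), and the log2 difference was 0.00 ± 0.48 (SE). An error of this size hides a moderate change of Fbln1 in either direction. When arrays of the same number were treated as a block, the SE was 0.21.

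Both other Fbln1 probes with signal ranked the arrays in nearly the same way. Probe ILMN_2497957 gave 88.6, 43.1 and 42.7 in Klf4-deficient arrays 1, 2 and 3, and 124, 17.3 and 54.7 in control arrays 1, 2 and 3. Probe ILMN_2449644 gave 67.1, 12.6 and 24.2 in the Klf4-deficient arrays and 76.4, 4.1 and 33.6 in the controls. Their log2 differences were 0.13 ± 0.59 and 0.09 ± 0.71 (SE). With all 3 probes control array 1 was the highest, Klf4-deficient array 1 the next and control array 2 the lowest, so the order of the arrays did not follow the groups. Errors of this size cannot show that the groups were alike. The 3 probes were above background on 6, 5 and 4 of the 6 arrays. Probes ILMN_2728985 and ILMN_2602770 were under the limit on every array, between -7.9 and 9.2.

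**Figure D3:**
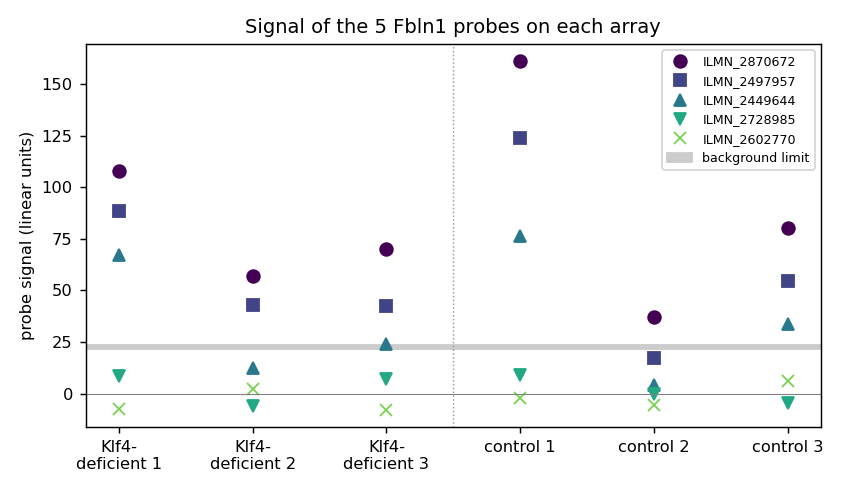
Signal of the 5 Fbln1 probes in linear units on each array, with the Klf4-deficient arrays left of the dotted line and the controls right of it; each symbol is 1 probe and the grey band is the background limit. The 3 brighter probes are highest on control array 1 and Klf4-deficient array 1 and lowest on control array 2, and the groups overlap.

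The direction of the Fbln1 difference depended on single arrays. For probe ILMN_2870672 it was 0.41 without control array 1 and -0.40 without control array 2. Over the same omissions of 1 array at a time the Fbln2 probe ILMN_1245307 stayed between -1.78 and -1.36. Control array 1 was the highest array for both genes, while Klf4-deficient array 1 was the next highest for Fbln1 and the lowest for Fbln2.

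**Figure D4:**
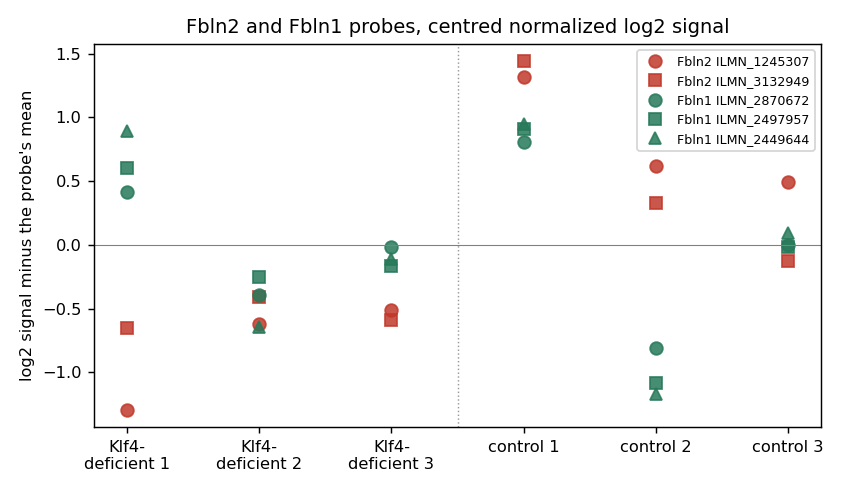
Normalized log2 signal of the 2 Fbln2 probes (red) and the 3 Fbln1 probes (green) that passed the background limit on at least 3 arrays, each with its own mean over the 6 arrays subtracted; Klf4-deficient arrays are left of the dotted line and controls right of it. The Fbln2 probes lie below 0 on the Klf4-deficient arrays, whereas the Fbln1 probes are high on the first array of each group. Fbln2 probe ILMN_3132949 passed the limit on the 3 controls only, so its low place on the Klf4-deficient arrays was fixed by this filter.

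Fbln5 and Efemp1 were not detected on any array. The Fbln5 probe gave -8.7, -11.4 and -3.9 in Klf4-deficient arrays 1, 2 and 3, and -8.6, -13.5 and -8.1 in the controls. The Efemp1 probe gave -6.8, -11.8 and 2.2 in the Klf4-deficient arrays and -7.3, -6.2 and -6.2 in the controls. No difference is given for either. Of the more distant fibulins, the Fbln7 probe was under the limit on every array (1.6 to 13.5 in the Klf4-deficient arrays and -3.4 to 11.1 in the controls). For Hmcn1, a very large member also called fibulin-6, 1 of 2 probes passed the limit on a single array, control array 2, at 22.8. Hmcn2 had no named probe and was not analysed here. Probes under the limit show that the transcript was not detectable at this signal, not that it was absent.

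The promoters of Fbln2 and Fbln1, the 2 members with signal, are shown because Klf4 encodes a zinc finger factor of a family that binds CACC and GC-rich boxes. The sequences are RefSeq windows on GRCm38.p6, from 250 bases before to 50 bases after the annotated start, 5′ to 3′ on the gene's strand. The annotated Fbln2 gene begins at chr6:91212460, upstream of its printed window, so the start used for Fbln2 is a downstream one. Fbln1 has 2 overlapping windows in this table, of which the one with the downstream start is printed, a choice made after both were seen. Capitals mark CACCC or its reverse GGGTG, the GC box GGGCGG or its reverse CCGCCC, and TGGGAA or its reverse TTCCCA, the core recognised by the Notch partner RBPJ.
Fbln2, chr6:91212514-91212813, plus strand: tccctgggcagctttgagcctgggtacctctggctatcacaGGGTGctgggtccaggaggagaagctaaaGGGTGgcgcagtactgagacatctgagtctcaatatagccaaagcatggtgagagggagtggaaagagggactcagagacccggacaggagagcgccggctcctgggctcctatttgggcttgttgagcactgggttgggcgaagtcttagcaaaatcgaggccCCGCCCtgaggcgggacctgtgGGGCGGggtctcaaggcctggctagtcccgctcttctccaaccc
Fbln1, chr15:85205758-85206057, plus strand: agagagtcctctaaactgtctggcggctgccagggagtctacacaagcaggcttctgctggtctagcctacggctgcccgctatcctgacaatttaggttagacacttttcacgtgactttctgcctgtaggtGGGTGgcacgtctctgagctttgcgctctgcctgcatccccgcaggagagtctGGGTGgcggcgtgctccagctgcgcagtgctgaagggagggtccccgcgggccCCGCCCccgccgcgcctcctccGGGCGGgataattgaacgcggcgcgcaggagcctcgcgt

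The printed windows of Fbln2 and Fbln1 each held the CACCC motif 2 times and the GC box 2 times, and TGGGAA 0 times. The other Fbln1 window, chr15:85205699-85205998, held CACCC 2 times, the GC box 0 times and TGGGAA 1 time, as its reverse 247 bases before the start. In the Fbln2 window the CACCC matches began 209 and 180 bases before the start, and the GC boxes began 16 bases before it and at base 7 after it. In the printed Fbln1 window the CACCC matches began 117 and 64 bases before the start. No 2 motifs overlapped. Of 32851 windows of this length 25.7% held CACCC at least 2 times, 19.5% held the GC box at least 2 times and 25.6% held TGGGAA. A match is a description of letters and not a binding site.

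The genes whose values over the 6 arrays lay closest to those of Fbln2 were Gpr183, Pisd-ps3, Camk1g, Abat and Ubap1l. Likeness was the root-mean-square gap between log2 values, each gene centred on its own mean, among 8360 genes above background on all 6 arrays. Gpr183, a receptor for oxysterols that guides lymphocytes, gave 76.7, 124.4 and 111.2 in Klf4-deficient arrays 1, 2 and 3 and 305.9, 158.1 and 139.1 in the controls. It shared with Fbln2 the lowest value in Klf4-deficient array 1 and the highest in control array 1. Its gap to Fbln2 was 0.46 log2 units, and those of the other 4 genes ran up to 0.50, against a median of 0.89 over the candidates. The gaps are not small beside the profile of Fbln2 itself, whose root-mean-square size was 0.89. The log2 differences of the 5 genes lay between -1.00 and -0.70. No candidate had a more negative difference than Fbln2, so it was fixed in advance that all 5 would be less negative than Fbln2. The 5 were chosen for their likeness, low values in the Klf4-deficient arrays included, so it supports nothing about Fbln2. Abat encodes the enzyme that breaks down the transmitter GABA, and Pisd-ps3 is a pseudogene related to a phospholipid enzyme.

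**Figure D5:**
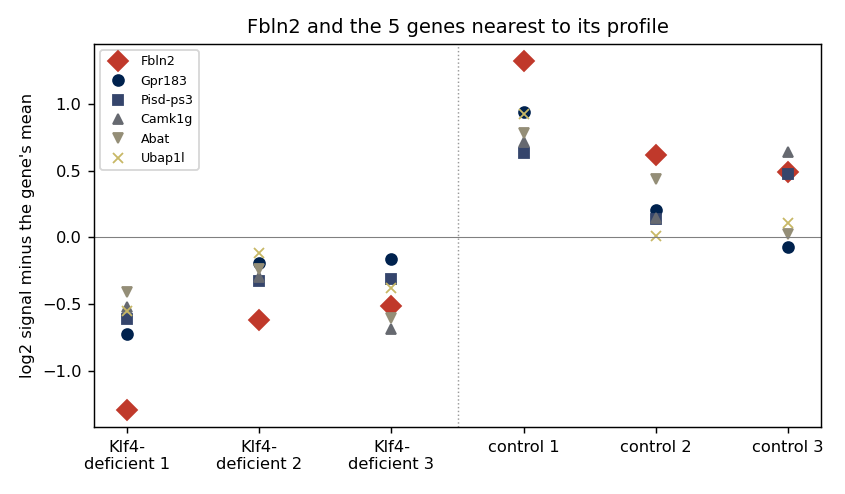
Normalized log2 signal of Fbln2 (red diamonds) and of Gpr183, Pisd-ps3, Camk1g, Abat and Ubap1l on each array, each with its own mean over the 6 arrays subtracted; Klf4-deficient arrays are left of the dotted line and controls right of it. All 6 genes lie below 0 on the Klf4-deficient arrays, and Fbln2 has the widest span.

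Genes that work with fibulins in the matrix did not pass the test in either direction. Elastic fibre genes had 20 of 23 listed members measured, and 6 of them were above background on at least 3 arrays. Their median log2 difference was 0.00, as was the median over all 19057 genes, and 0 were called lower and 0 higher by limma at an adjusted p under 0.05, where 0% and 0.0105% of all genes were called. At an unadjusted p under 0.05, 0 were lower and 1 was higher, against 4.09% and 3.51% of all genes. Eln, the gene of elastin itself, was under the limit on every array. Emilin1, a glycoprotein of elastic fibres, gave 314.6, 253.3 and 182.4 in the arrays labelled Klf4-deficient and 361.7, 306.7 and 352.6 in the controls (log2 -0.36 ± 0.15 SE, adjusted p = 0.698 from limma). Emilin2, its relative, gave 303.4, 382.4 and 972.6 in the Klf4-deficient arrays and 287.3, 295.4 and 203 in the controls (0.98 ± 0.57, adjusted p = 0.783 from limma). The high value of Emilin2 lay in Klf4-deficient array 3, in which neutrophil and monocyte markers were also highest, and their part in it was not tested. Loxl4, an enzyme that crosslinks elastin and collagen, lay just above the limit on 3 of 3 Klf4-deficient arrays (26.9 to 28.8) and under it on all 3 controls (12.8 to 20.9), with an adjusted p of 0.538 from limma. The growth factors Tgfb1 and Tgfb2 differed by 0.16 ± 0.07 and -0.34 ± 0.37, with adjusted p of 0.739 and 0.816 from limma.

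Basement membrane and proteoglycan genes, which include the direct partners of fibulin-1 and fibulin-2, had 24 of 26 members measured and 6 above background on at least 3 arrays. Their median difference was -0.04. In limma 0 were called lower and 0 higher. At an unadjusted p under 0.05 the numbers were 0 and 2 (Ecm1 and Nid2), against 4.09% and 3.51% of all genes. Nid2, the gene of nidogen-2, was under the limit on every array. Ecm1, a secreted glycoprotein that binds perlecan, gave 221.5, 203 and 206.1 in the arrays labelled Klf4-deficient and 199.4, 175.3 and 171.3 in the controls (log2 0.28 ± 0.09 SE, adjusted p = 0.555 from limma). Agrn, which encodes the heparan sulfate proteoglycan agrin, gave 1867.2, 1656.2 and 1497.7 in the Klf4-deficient arrays and 2740.7, 1800.7 and 1717.4 in the controls (-0.18 ± 0.19, adjusted p = 0.817 from limma). Lamb3, a laminin chain, differed by -0.34 ± 0.15, and Timp3, an inhibitor of metalloproteinases held in the matrix, by -0.40 ± 0.23, with adjusted p of 0.72 and 0.778 from limma. Fn1, the fibronectin gene, was above background on 0 of 3 Klf4-deficient arrays (5.8 to 21.5) and on 2 of 3 controls (18.4 to 49.1). Nid1, the gene of the fibulin-binding protein nidogen-1, was above it on 1 of 3 Klf4-deficient arrays and 2 of 3 controls. Eln, Fn1 and Nid2 are named here after their values were seen. Without Klf4-deficient array 3 a laminin gene, Lamb1, was called higher (log2 0.40, adjusted p = 0.00428 from limma), although its probe was not above background on any array.

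Receptors and proteases of the fibulins had 19 of 20 members measured, 9 of them above background on at least 3 arrays, and a median difference of 0.05. In limma 0 were called lower and 0 higher. At an unadjusted p under 0.05, 1 was lower (Itga4) and 1 higher (Mmp3), against 4.09% and 3.51% of all genes. Mmp3, named after its values were seen, was under the limit on every array. Itga4, the integrin chain through which lymphocytes hold to fibronectin and VCAM1, gave 63, 72.2 and 73.2 in the arrays labelled Klf4-deficient and 111.2, 88.1 and 117.8 in the controls (log2 -0.43 ± 0.12 SE, adjusted p = 0.531 from limma). Every Klf4-deficient signal lay below every control signal. The same held for 12.7% of the genes above background on all 6 arrays, as Itga4 was, and for 8.31% of all genes. Itga9, an integrin chain that binds tenascin and other matrix proteins, gave 1431.3, 743.2 and 646 in the Klf4-deficient arrays and 2113.4, 763.7 and 1276.6 in the controls (-0.42 ± 0.46, adjusted p = 0.818 from limma). Like Fbln1, it was highest in the first array of each group. Itga5, a chain of the fibronectin receptor, differed by 0.38 ± 0.22 (adjusted p = 0.783 from limma). The proteases Elane and Mmp9 were highest in Klf4-deficient array 3, at 5113.3 and 1786.5.

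Of the markers of stromal and endothelial cells, 10 of 16 and 9 of 12 passed the background limit on none of the arrays. Of the stromal and fibroblast markers 3 were above background on at least 3 arrays, and Col1a1, Col3a1 and Pdgfra were under the limit on every array. Cxcl12, a chemokine of marrow stromal cells, was above the limit on all 6 arrays, at 45.7 to 69.3 in the Klf4-deficient arrays and 54.6 to 84.5 in the controls. Without Thy1, which T cells also express, the summed signal of the list was 227, 172.1 and 166.7 in Klf4-deficient arrays 1, 2 and 3 and 196.2, 260.8 and 167.8 in the controls, so the groups overlapped. Of the endothelial markers 3 were above background on at least 3 arrays, and Cdh5 and Kdr were under the limit throughout. Pecam1, which leukocytes also express, gave 576.2 to 805.6 in the Klf4-deficient arrays and 773.4 to 986.9 in the controls. Egfl7, a protein secreted by endothelial cells, was above the limit on all 6 arrays, at 179.1 to 221.4 in the Klf4-deficient arrays and 125.9 to 224.7 in the controls. The summed endothelial signal, most of it from Pecam1, was 884.6 to 1093 in the Klf4-deficient arrays and 1099 to 1304 in the controls. The mean log2 levels of the 12 endothelial markers, relative to the control mean, overlapped between the groups. They were 0.185, -0.03 and 0.066 in the Klf4-deficient arrays and -0.116, 0.04 and 0.075 in the controls. Of these markers 6 had a difference below 0 and 6 above it. At an unadjusted p under 0.05 in limma, 1 of 12 endothelial markers was lower (Pecam1, -0.26 ± 0.09 SE) and 0 were higher. Of 16 stromal markers 1 was lower (Lepr, named after its values were seen and under the limit on every array) and 0 were higher. Over all genes 4.09% were lower and 3.51% higher. The part of endothelial cells in the lower Fbln2 signal was not tested. In such sorted bulk samples fewer cells of a type and less RNA per cell cannot be told apart.

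The mean log2 levels of erythroid and monocyte markers lay above every control in Klf4-deficient arrays 2 and 3, while in array 1 the erythroid markers lay within the range of the controls. No gene of the erythroid, monocyte, neutrophil, megakaryocyte, B lineage or NK list passed in limma at an adjusted p under 0.05, and the smallest adjusted p was 0.395, in the erythroid list. At an unadjusted p under 0.05, 2 of 15 erythroid, 7 of 24 monocyte and 4 of 13 NK genes were higher, against 3.51% of all genes, and 0 of these lists' genes were lower. Relative to the control mean, the 15 measured erythroid markers lay at 0.17, 1.04 and 1.81 log2 units in Klf4-deficient arrays 1, 2 and 3, against -0.34 to 0.19 in the controls. Of them 11 were above background on at least 3 arrays, and their summed signal was 43100 to 59030 in the Klf4-deficient arrays and 35310 to 43060 in the controls. The 24 monocyte, macrophage and dendritic markers lay at 0.23, 0.58 and 1.22 in the same arrays, against -0.06 to 0.07 in the controls, with 14 of them above background on at least 3 arrays and a summed signal of 6562 to 17140 in the Klf4-deficient arrays and 5416 to 7282 in the controls. Neutrophil markers stood at 1.40 in Klf4-deficient array 3 alone, at -0.18 and -0.13 in the other 2 Klf4-deficient arrays, against -0.26 to 0.35 in the controls. The brightest erythroid marker, Hba-a1, gave 36555.5 to 39930.6 in the Klf4-deficient arrays and 31501.2 to 36696.9 in the controls. The brightest neutrophil marker, S100a8, gave 23293.6 to 24971.3 in the Klf4-deficient arrays and 25775.1 to 29463.9 in the controls. Both were thus strong in every sample. The megakaryocyte, B lineage and NK lists had median log2 differences of 0.21, 0.09 and 0.27. Pf4, Pax5 and Ncr1 were under the limit on every array, whereas Itga2b, Gp9, Cd79b and Vpreb1 were above it on all 6. Of the NK and cytotoxic genes, the chemokine Ccl5 gave 546.7, 805.5 and 396.6 in Klf4-deficient arrays 1, 2 and 3 and 138.2, 253.4 and 315.7 in the controls (log2 1.36 ± 0.38 SE, adjusted p = 0.531 from limma). Nkg7, a granule protein of cytotoxic cells, gave 541.4, 910.4 and 1103.5 in the Klf4-deficient arrays and 410.8, 519.3 and 426.1 in the controls (0.95 ± 0.36, adjusted p = 0.653 from limma). Klrd1 and Ctsw, named after their values were seen, differed by 1.33 ± 0.34 and 0.91 ± 0.24, with adjusted p of 0.502 and 0.515 from limma. Klrd1 was above background on 3 of 3 Klf4-deficient arrays and 0 of 3 controls. Prf1, the brightest gene of this list, gave 1378.7, 1504.7 and 1675.1 in the Klf4-deficient arrays and 1467.1, 2211.2 and 1995 in the controls. Its log2 difference was -0.18 ± 0.24 (adjusted p = 0.875 from limma). Klrb1c, at -0.04 ± 0.43, was above background on 1 of 3 Klf4-deficient arrays and 3 of 3 controls. Of the 13 measured genes 8 lay above 0 and 5 below it. Fbln2 was lowest in Klf4-deficient array 1, in which the erythroid and monocyte markers were nearest to the controls. Without Klf4-deficient array 3, in which those markers were highest, its log2 difference was -1.78. The part of these cells in the values of Fbln2 was not tested. The 11 measured markers of double-positive thymocytes had a median difference of -0.09. The sorted cells were leukemia cells positive for CD4 and CD8, not thymocytes.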

How the data were processed

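The table deposited by the authors holds linear intensity values, 1 column per array; per the submitters' processing notes the tool was BeadStudio. Between 31.3% and 34.2% of an array's values lie below 0, as they would after a background was subtracted, though no source records that step. The sources used here give neither the method nor any normalization between arrays or detection p-values. Negative values were replaced by 0, an offset of 16 was used before taking log2, and arrays were then quantile normalized. One gene symbol was attached to 34885 of the 45281 probes, several to 18, and 10378 were unnamed here. Each of 19057 genes was represented by its brightest probe on average. Differences and SE came from limma (version 3.58.1, run in R version 4.3.3, with a mean-variance trend in eBayes), over all probes for the fibulins and over all genes for the lists, with Benjamini-Hochberg adjustment and a threshold of 0.05. The background SD was estimated by mirroring negative values.

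The members, lists and tests were chosen with earlier results of these data known. From each matrix list up to 5 genes with the smallest p among those above background on at least 3 arrays were named. Of the marker lists only some of the brightest and of the defining markers are named. Alternatives were other normalizations, offsets of 1 and 50, no variance trend, weighted arrays, a block for the replicate number, averaging all probes of a gene, dim genes left out, other background limits, and leaving out each array. Promoter windows come from RefSeq on GRCm38.p6.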

Additional observations from a re-analysis of the deposited data

How the results depend on the processing

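The Fbln2 probe ILMN_1245307 was below 0 in all 15 alternatives run on it, from -1.78 without Klf4-deficient array 3 to -1.36 without control array 1. With the replicate number as a block its difference was -1.62 with an SE of 0.43. For the Fbln1 probes ILMN_2870672, ILMN_2497957 and ILMN_2449644 this block left the differences unchanged. Their SEs were 0.21, 0.31 and 0.22 with it, and 0.48, 0.59 and 0.71 without it. With ILMN_2870672 and ILMN_2449644 both groups were highest in array 1 and lowest in array 2. Over 8361 genes, however, arrays of the same number did not go together throughout. Deviations from the group mean correlated across these genes at 0.15, -0.03 and -0.24 for numbers 1, 2 and 3. Not every array correlated best with its own number. With 3 arrays a group, such correlations cannot exclude that the numbers paired the arrays. The second Fbln2 probe was also below 0 in all 15, from -1.58 with an offset of 1 to -0.64 without control array 1. The Fbln1 probe ILMN_2870672 was below 0 in 6 of 15 and above it in 9. The mean of the 3 Fbln2 probes, 1 of them under the limit throughout, differed by -0.87. With a limit of 5 background SDs 3 fibulin probes passed on at least 3 arrays, against 5 at the limit used. In limma 2 genes, Commd10 and Tspyl5, were higher over all genes and 0 lower. The Tspyl5 probe was not above background on any array. The number higher was 1 with median centring, cyclic loess, an offset of 50 or no variance trend, and 0 with the replicate block or with all probes of a gene averaged. With no normalization or with an offset of 1 the number was 4 higher and 1 lower. Leaving out 1 array gave 1 to 20 higher and 0 to 8 lower genes, and 0 to 1 called partner genes. That gene was Lamb1, without Klf4-deficient array 3. The cause of these shifts was not tested. Signal near background limits Fbln1, the second Fbln2 probe and most matrix genes.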

Other observations

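The genes nearest to Fbln1 by the same measure, looked up after its values were seen, were Wdr25, Fbxw8, Spsb4, P4ha1 and Heyl. Wdr25 gave 929.5, 596.2 and 630.7 in Klf4-deficient arrays 1, 2 and 3, and 1374, 465.3 and 690.1 in the controls. Its root-mean-square gap to Fbln1 was 0.11 log2 units, against 0.52 for the size of the Fbln1 profile itself. Heyl, a transcriptional repressor induced by Notch signalling, gave 95.6, 51.5 and 79.1 in the Klf4-deficient arrays and 141.4, 46.4 and 56 in the controls. P4ha1, a subunit of the enzyme that hydroxylates collagen, gave 125, 66 and 74.1 in the Klf4-deficient arrays and 155.6, 63.8 and 107.2 in the controls. All 5 genes were highest in control array 1 and next highest in Klf4-deficient array 1, and the groups overlapped for each. The 5 were chosen for their likeness, so it supports nothing about Fbln1.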
